A study of Mus musculus with 2 samples.

Results

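Expression of 10 genes that are used to mark or to sort skeletal stem cells was followed in single periosteal cells. The genes were Prrx1, Gli1, Ctsk, Lepr, Cd200, Itgav, Thy1, Eng, Cd34 and Ly6a. The list was drawn up by name, with earlier results of these data known, and all 10 were found among the 31253 genes of both deposited tables. A skeletal stem cell is a cell that renews itself and gives rise to bone, cartilage and stroma. No single gene defines it, so mouse studies follow it with Cre drivers for genes such as Ctsk, Gli1, Lepr and Prrx1, or sort it by combinations of surface proteins. In a widely used sort the cell carries integrin alpha V (CD51, from Itgav) and CD200 and lacks THY1 (CD90), endoglin (CD105, from Eng) and the 6C3 antigen (from Enpep). SCA-1, the product of Ly6a, and CD34 mark stromal progenitors and fibroblasts as well as blood vessel and blood-forming cells.

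The cells came from the periosteum, the connective tissue sheath of bone, of femurs and tibias of 8-week-old mice. There was 1 BD Rhapsody whole-transcriptome library for each of 2 genotypes. The control mice were Prx1 Cre; Ai9/+ and the other mice were Prx1 Cre; Ai9/+; Piezo1 fl/fl, so that both genotypes carried the Cre and the reporter. Cells positive for the Prx1 reporter were sorted, which takes descendants of limb mesenchyme cells in which the Cre was once active, whether or not they still transcribed Prrx1. The floxed alleles of Piezo1, which encodes a mechanically gated ion channel, could recombine where the Cre had been active. The labels do not give the number of mice behind each library. With 1 library per genotype there was no replicate and no test was made. Every interval below is an exact 95% interval for counting error alone, and a difference between the libraries compares those 2 libraries, in which genotype, mice and preparation cannot be told apart.

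The tables hold unique molecular identifiers (UMIs), each standing for a captured mRNA molecule read at its 3′ end. The control library had 6118 cell barcodes and 28030299 UMIs, of which 4418 cells with a median of 4812.5 UMIs were retained. The Piezo1 fl/fl library had 7469 barcodes and 32337308 UMIs, and 5084 cells with a median of 4593 UMIs were retained. The libraries shared 50 barcodes, 36 of them among the retained cells of each. Piezo1 had 132 UMIs over the retained control cells (5.18 counts per 1e6 UMIs, CPM) and 69 over the retained Piezo1 fl/fl cells (2.42 CPM). These counts by themselves check nothing, since tags from the 3′ end may lie outside the deleted exons.

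Cells were clustered in each library by itself, without the 10 genes and 20 further stem cell genes, and clusters were named by other marker genes. The SSPC-1-like cells (Angptl7, Col8a1, Egfl6) numbered 795 in the control against 1037 in the Piezo1 fl/fl library, and the SSPC-2-like cells (Postn, Sp7, Runx2) 747 and 392. Fibroblast-like cells, with Pi16 or Gdf10 and their companions, numbered 1632 and 2087, and tendon-like cells (Scx, Tnmd, Mkx) 211 and 390. Among the others were mural-like cells of vessel walls (296 and 363), endothelial-like cells (172 and 142), macrophage-like cells (417 and 434) and cells like those of the joint lining (55 and 124). Smaller classes were named in 1 library only, which were mature osteoblast-like (60 cells) and perineurial-like (33 cells) in the control and chondrocyte-like (27 cells) and other blood cells (88) in the Piezo1 fl/fl library. The SSPC-1-like and tendon-like names lay close together. Angptl7 was raised in the SSPC-1-like cluster of both libraries and does not set it apart from the tendon-like one. In both libraries it was among the 10 most raised genes of the tendon-like cluster, but not among those of the SSPC-1-like cluster. The mean log2 score of the SSPC-1-like cluster was 4.17 for its own markers and 3.93 for tendon markers in the control library, and 4.07 and 4.04 in the Piezo1 fl/fl library. Fibroblast-like cells were pooled for comparisons between the libraries because their Pi16 and Gdf10 groups were divided differently in each (control 1140 and 492 cells, Piezo1 fl/fl 1857 and 230 cells).

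Levels are given as CPM over all cells of a class, with the interval in brackets. Detection is the share of cells with at least 1 UMI of the gene after every cell had been thinned to 2500 UMIs, which left out cells with fewer. Free RNA in the suspension can put a UMI into a cell that does not transcribe the gene. Each share is therefore read beside that of a class that should lack it, mostly mural-like or macrophage-like cells, whose median depths before thinning were 3745 and 3767 UMIs in the control and 3948 and 4033.5 UMIs in the Piezo1 fl/fl library. SSPC-1-like cells had medians of 5218 and 3954 UMIs.

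Prrx1, a homeobox transcription factor of limb mesenchyme and the gene behind the Cre driver, had its highest level in SSPC-1-like cells of both libraries, also with the Pi16 and Gdf10 fibroblast-like cells taken apart. It lies on chromosome 1 (163245119 to 163313710, minus strand). Positions here are those of the GENCODE vM21 annotation of GRCm38, since the build behind the tables is not given in the sources used here. SSPC-1-like cells held 1814 CPM (1775 to 1853) in the control and 1265 CPM (1234 to 1297) in the Piezo1 fl/fl library. Fibroblast-like cells had 841 and 651 CPM and tendon-like cells 779 and 738 CPM, so that their order differed between the libraries. SSPC-2-like cells, which carried osteoblast lineage markers, stood lower at 477 and 387 CPM. At equal depth 96.5% and 90.1% of SSPC-1-like cells had a Prrx1 UMI. Macrophages and endothelium are not held to descend from limb mesenchyme, but cells like them were present among the sorted cells. A Prrx1 UMI was found in 8.41% and 7.28% of the macrophage-like cells and in 6.78% and 12.6% of the endothelial-like cells, and the stromal classes lay far above these shares.

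The promoters of Prrx1 and Cd34 are shown as RefSeq gives them for GRCm38.p6, from 250 bases before to 50 bases after the start of the gene, because the highest class differed between them. Prrx1 was highest in SSPC-1-like cells, and Cd34, described further on, in fibroblast-like cells, while their levels over 21 classes of both libraries had a weak positive correlation (Pearson r = 0.222). Capitals mark a match to the homeobox core TAATTA, which was found on either strand in 5.29% of 32851 mouse promoters of this length.
Prrx1, chr1:163313601-163313900, minus strand: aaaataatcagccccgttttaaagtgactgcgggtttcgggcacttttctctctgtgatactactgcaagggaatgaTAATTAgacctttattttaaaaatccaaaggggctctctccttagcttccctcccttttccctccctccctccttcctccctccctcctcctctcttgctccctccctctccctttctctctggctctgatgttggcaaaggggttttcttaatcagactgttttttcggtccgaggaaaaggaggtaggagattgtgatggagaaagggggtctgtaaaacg
Cd34, chr1:194938571-194938870, plus strand: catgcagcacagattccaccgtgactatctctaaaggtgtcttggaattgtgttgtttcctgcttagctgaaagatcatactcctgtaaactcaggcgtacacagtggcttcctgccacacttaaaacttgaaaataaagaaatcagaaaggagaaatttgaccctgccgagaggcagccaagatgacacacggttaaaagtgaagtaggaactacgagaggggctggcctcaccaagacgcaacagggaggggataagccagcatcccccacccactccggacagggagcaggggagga
Prrx1 had 1 such match and Cd34 had 0. The TATA box letters TATAAA, found on either strand in 13.6% of mouse promoters, were in neither window. Neither was CCAAT, found in 37.4%, nor were the GC box letters GGGCGG, found in 35.7%. A match is a run of letters and says nothing about binding, and these data hold no measurement at the promoters.

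Gli1, the transcription factor that reports active Hedgehog signalling, was scarce everywhere. It lies on chromosome 10 (127329882 to 127341974, minus strand) and overlaps Arhgap9 and Gm47200 on the opposite strand, and the strand setting of the counting is not given in the sources used here. The control library held 289 Gli1 UMIs in 5.66% of retained cells, and the Piezo1 fl/fl library 276 UMIs in 4.45%. SSPC-1-like cells had 17.7 CPM (14.0 to 21.9) in the control and 10.9 CPM (8.15 to 14.2) in the Piezo1 fl/fl library. The class with the highest level among those of at least 200 cells was the Gdf10 fibroblast-like class in both, with 23.1 CPM (17.3 to 30.1) and 63.3 CPM (51.3 to 77.3). At equal depth 5.75% and 14.5% of these cells and 4.73% and 2.26% of SSPC-1-like cells had a Gli1 UMI, against 0.403% and 0.326% of mural-like cells. In the control the level did not differ from that of SSPC-1-like cells or perineurial-like cells (23.3 CPM from 4 UMIs) beyond the counting intervals.

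Ctsk encodes cathepsin K, the collagen-degrading protease of osteoclasts, and its Cre driver labels periosteal stem cells. The gene lies on chromosome 3 (95499256 to 95509362, plus strand). Its level was 695 CPM (671 to 720) in control SSPC-1-like cells and 574 CPM (552 to 595) in Piezo1 fl/fl SSPC-1-like cells. SSPC-2-like cells held 644 and 645 CPM, and the highest class was the joint lining-like one, with 717 CPM (643 to 797) and 1105 CPM (1042 to 1170). Ctsk was thus spread over the stroma. Fibroblast-like cells had 340 and 392 CPM and tendon-like cells 478 and 644 CPM, whereas mural-like and endothelial-like cells had at most 41.4 CPM. The other blood cells of the Piezo1 fl/fl library had 489 CPM, with a UMI in 10.8% of cells at equal depth. That level came from 226 UMIs, 188 of them in a single cell. At equal depth 72.7% and 71.2% of SSPC-1-like cells and 73.0% and 73.4% of SSPC-2-like cells had a UMI, beside 8.87% and 6.84% of mural-like cells. In the control, lining-like cells and SSPC-1-like cells did not differ beyond counting error (log2 difference 0.04, interval -0.12 to 0.21).

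Macrophage-like cells had a Ctsk level of 329 CPM in the control and 532 CPM in the Piezo1 fl/fl library, but few cells carried it. Of 417 control cells, 7 with at least 10 Ctsk UMIs held 502 of the 625 Ctsk UMIs of the class (80.3%), up to 154 in a single cell. Of 434 Piezo1 fl/fl cells, 12 held 1089 of 1184 UMIs (91.98%), up to 332 in a single cell. The remaining macrophage-like cells stood at 66.3 and 45.0 CPM. The few high cells also held osteoclast genes. The summed level of 6 osteoclast markers (Acp5, Mmp9, Atp6v0d2, Ocstamp, Calcr and Dcstamp) was 8740 CPM in them against 166 CPM in the other macrophage-like cells of the control, and 8668 against 217 CPM in the Piezo1 fl/fl library. Ocstamp and Calcr were at 0 in the other control cells, and Calcr was at 0 in both sets of Piezo1 fl/fl cells. The 6 macrophage markers summed to 6589 CPM in the high cells and 14510 CPM in the other cells of the control, and to 5444 and 15770 CPM in the Piezo1 fl/fl library.

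Lepr, on chromosome 4 (101717404 to 101815352, plus strand), encodes the leptin receptor, which marks stem and stromal cells of the bone marrow. SSPC-1-like cells had 164 CPM (152 to 176) in the control and 128 CPM (118 to 138) in the Piezo1 fl/fl library, while SSPC-2-like cells had 4.53 CPM (2.90 to 6.74) and 5.86 CPM (3.28 to 9.66). This was the widest ratio of any member between these classes, 36.2-fold in the control and 21.8-fold in the Piezo1 fl/fl library. At equal depth 23.0% and 18.8% of SSPC-1-like cells had a Lepr UMI. The shares in SSPC-2-like cells (1.26% and 0.542%) were no higher than in macrophage-like cells (1.56% and 1.96%) and are read as background. Tendon-like cells had 117 and 93.7 CPM and endothelial-like cells 155 and 81.0 CPM. Gdf10 fibroblast-like cells held the highest level of the control library, 286 CPM (264 to 308), but 25.1 CPM (17.7 to 34.4) in the Piezo1 fl/fl library, where the fibroblast-like cells were divided differently. With all fibroblast-like cells pooled (126 and 56.6 CPM), SSPC-1-like cells had the highest Lepr level in both libraries, though in the control it did not differ from that of endothelial-like cells beyond counting error (log2 difference 0.08, -0.22 to 0.40).

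**Figure D1:**
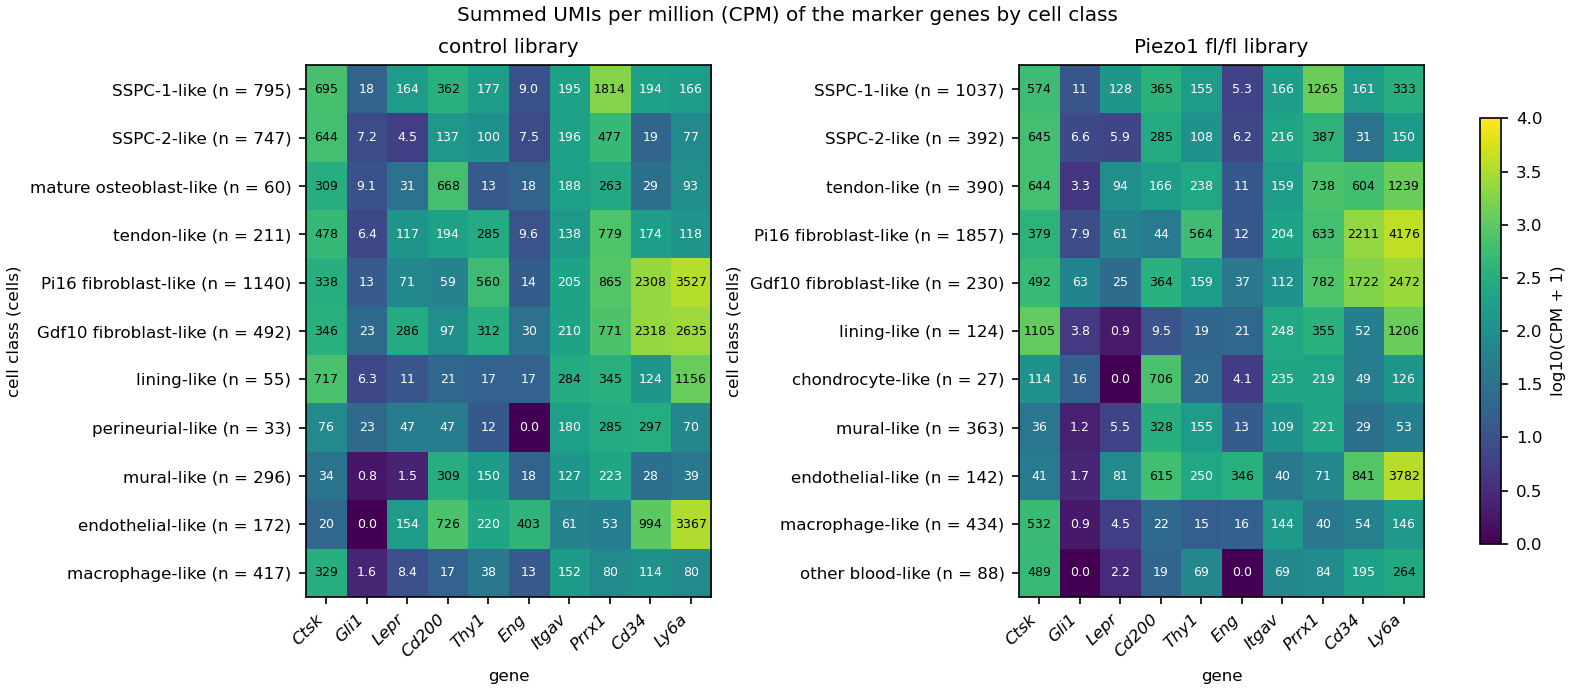
Level of each of the 10 genes (columns) in each class of cells (rows), with the CPM printed in each cell and log10(CPM + 1) as the colour, for the control and the Piezo1 fl/fl library side by side; levels are to be compared within a column. Prrx1 reaches its highest value in the SSPC-1-like row (1814 and 1265 CPM), Eng in the endothelial-like row (403 and 347 CPM), and Cd34 and Ly6a in fibroblast-like rows.

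Cd200, on chromosome 16 (45382135 to 45409053, minus strand), encodes an immunoglobulin-family membrane protein that restrains myeloid cells, and it is the positive marker of the sort described above. SSPC-1-like cells held 362 CPM (345 to 379) in the control and 365 CPM (348 to 382) in the Piezo1 fl/fl library, which differed by less than counting error. Some classes of differentiated cells held more and others less, down to 9.49 CPM in joint lining-like cells of the Piezo1 fl/fl library. Endothelial-like cells had 726 and 615 CPM, mature osteoblast-like cells of the control 668 CPM and chondrocyte-like cells of the Piezo1 fl/fl library 706 CPM, the last from 27 cells. Mural-like cells had 309 and 328 CPM. SSPC-2-like cells stood at 137 CPM (127 to 147) in the control and 285 CPM (265 to 307) in the Piezo1 fl/fl library, and fibroblast-like cells at 68.6 and 81.9 CPM. The last values pool unlike groups, as the Gdf10 fibroblast-like cells had 97.3 CPM in the control but 364 CPM in the Piezo1 fl/fl library, where they did not differ from SSPC-1-like cells beyond counting error (log2 difference 0.00, -0.13 to 0.14). At equal depth 49.7% and 51.6% of SSPC-1-like cells had a UMI against 2.80% and 2.24% of macrophage-like cells.

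Itgav, the integrin subunit behind CD51, was found in every class, at levels from 39.7 to 284 CPM. It lies on chromosome 2 (83724397 to 83806916, plus strand). SSPC-1-like cells had 195 and 166 CPM, SSPC-2-like cells 196 and 216 CPM, fibroblast-like cells 207 and 194 CPM, and macrophage-like cells 152 and 144 CPM. The joint lining-like class was highest with 284 and 248 CPM and endothelial-like cells lowest among the classes of both libraries with 60.9 and 39.7 CPM. At equal depth 36.4% and 33.3% of SSPC-1-like cells had a UMI, against 11.9% and 6.32% of endothelial-like cells.

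Thy1 (chromosome 9, 44043384 to 44048579, plus strand), a small glycoprotein anchored in the outer membrane, was highest in the Pi16 fibroblast-like cells (560 and 564 CPM). All fibroblast-like cells together held 497 CPM (483 to 512) in the control and 516 CPM (504 to 529) in the Piezo1 fl/fl library, tendon-like cells 285 and 238 CPM, SSPC-1-like cells 177 and 155 CPM, and SSPC-2-like cells 99.97 and 108 CPM. At equal depth 24.8% and 24.0% of SSPC-1-like cells had a Thy1 UMI, beside 4.05% and 3.08% of macrophage-like cells. Endothelial-like cells reached 220 and 250 CPM through a few cells. In the control 13 of 172 endothelial-like cells with at least 3 Thy1 UMIs held 120 of 141 Thy1 UMIs (85.1%), and in the Piezo1 fl/fl library 17 of 142 held 131 of 145 (90.3%). In these cells the lymphatic vessel genes Prox1, Lyve1, Mmrn1 and Flt4, which were chosen after the values had been seen, summed to 16900 CPM against 233 CPM in the other endothelial-like cells of the control, and to 4058 against 226 CPM in the Piezo1 fl/fl library. Ly6a, abundant in the other endothelial-like cells, had 1 of its 2157 endothelial-like UMIs in these cells in the control and 185 of 2194 in the Piezo1 fl/fl library.

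Eng encodes endoglin, a co-receptor for TGF-beta family ligands on endothelium. It lies on chromosome 2 (32646595 to 32682669, plus strand) and overlaps Fpgs on the opposite strand. Endothelial-like cells held 403 CPM (355 to 455) in the control and 347 CPM (300 to 398) in the Piezo1 fl/fl library, and no other class exceeded 36.9 CPM. SSPC-1-like cells had 9.05 CPM (6.52 to 12.2) and 5.34 CPM (3.49 to 7.82). Their share with a UMI, 2.78% and 1.02%, did not exceed that of macrophage-like cells (3.12% and 4.202%) or mural-like cells (4.03% and 3.26%). Some small classes had none, with 0 of 56 mature osteoblast-like cells of the control (up to 6.38%). In the Piezo1 fl/fl library 0 of 83 other blood cells had one (up to 4.35%). In the Piezo1 fl/fl library the SSPC-1-like share (0.467% to 1.92%) lay below that of macrophage-like cells (2.37% to 6.84%) beyond counting error. An Eng share no higher than in macrophage-like and mural-like cells is read as background here, though Eng background itself was not measured.

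Cd34, a sialomucin of vessels, blood progenitors and fibroblasts, and Ly6a stood highest in fibroblast-like cells among the stromal classes and had low levels in SSPC-2-like and mural-like cells. Cd34 lies on chromosome 1 (194938819 to 194961279, plus strand). Its level was 2310 CPM (2279 to 2341) in fibroblast-like cells of the control and 2153 CPM (2128 to 2179) in those of the Piezo1 fl/fl library, against 194 CPM (181 to 207) and 161 CPM (150 to 173) in SSPC-1-like cells. SSPC-2-like cells had 19.2 and 31.3 CPM and mural-like cells 27.6 and 28.7 CPM, and the SSPC-2-like share of cells with a UMI (4.19% and 5.69%) was below that of mural-like cells (6.45% and 6.84%). In SSPC-1-like cells the share was 28.7% and 21.8%. Tendon-like cells held 174 CPM (151 to 199) in the control and 605 CPM (572 to 639) in the Piezo1 fl/fl library.

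Ly6a lies on chromosome 15 (74994877 to 74998031, minus strand). Of the 50-base stretches of its transcripts, 19.0% occur also in transcripts of Ly6c1, Ly6i or I830127L07Rik, so some of its reads may be shared or lost, and its values are uncertain to that extent. The fibroblast-like cells had 3302 CPM (3265 to 3339) in the control and 3975 CPM (3941 to 4010) in the Piezo1 fl/fl library, and endothelial-like cells 3367 and 3782 CPM. Joint lining-like cells held 1156 and 1206 CPM. SSPC-1-like cells stood at 166 CPM (154 to 178) and 333 CPM (317 to 349), and tendon-like cells at 119 CPM (100.2 to 139) and 1239 CPM (1191 to 1287). SSPC-2-like cells had 77.3 and 149.6 CPM and mural-like cells 39.1 and 53.1 CPM. At equal depth 18.5% and 27.6% of SSPC-1-like cells had a Ly6a UMI, against 7.66% and 8.47% of mural-like and 10.6% and 14.6% of macrophage-like cells. Among SSPC-2-like cells the share was 12.3% and 28.7%. The UMIs of SSPC-1-like cells were uneven over cells, as the top 5% of these cells held 60.7% of them in the control against 55.0% in the Piezo1 fl/fl library, up to 75 and 46 in a single cell.

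**Figure D2:**
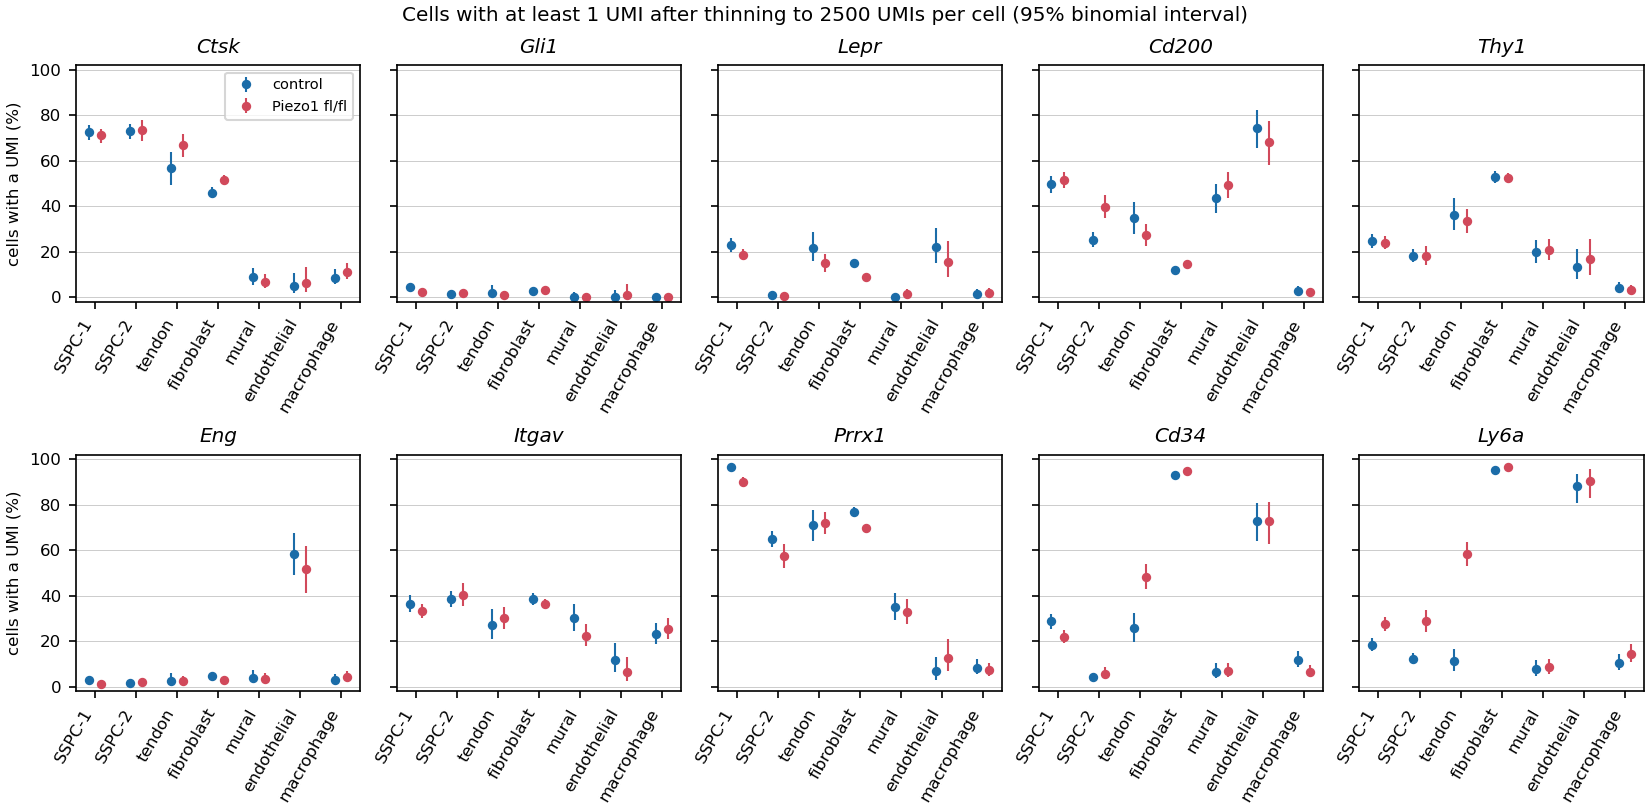
Share of cells with at least 1 UMI of each gene (percent) after thinning to 2500 UMIs per cell, by class, with exact 95% binomial intervals as bars, for the control and the Piezo1 fl/fl library. In SSPC-1-like cells the share was 96.5% and 90.1% for Prrx1, 72.7% and 71.2% for Ctsk, 23.0% and 18.8% for Lepr, and 2.78% and 1.02% for Eng.

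The classes were then compared within each library, counting a gene when its CPM differed at least 2-fold and it had at least 50 UMIs over both classes. Between SSPC-1-like and fibroblast-like cells of the control, 3 of the 10 genes were higher in SSPC-1-like cells (Cd200 5.27-fold, Prrx1 2.16-fold, Ctsk 2.05-fold) and 4 were lower (Ly6a, Cd34, Thy1 and Eng). The share of all genes past 2-fold was 17.8%. In the Piezo1 fl/fl library 2 were higher (Cd200 4.46-fold, Lepr 2.26-fold) and the same 4 lower, with 16.6% of all genes past 2-fold. Of these, Eng was at a level read as background in SSPC-1-like cells. The Cd200 fold does not hold for the Gdf10 group of the Piezo1 fl/fl library, whose Cd200 level lay within counting error of that of the SSPC-1-like cells. The ratio of SSPC-1-like over fibroblast-like cells was 0.0502 for Ly6a and 0.0839 for Cd34 in the control, and 0.0837 and 0.0749 in the Piezo1 fl/fl library.

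Against SSPC-2-like cells, 6 of the 10 genes were higher in SSPC-1-like cells of the control, 0 were lower, and 17.8% of all genes were past 2-fold. These were Lepr, Cd34 (10.1-fold), Prrx1 (3.81-fold), Cd200 (2.64-fold), Gli1 (2.46-fold) and Ly6a (2.14-fold). In the Piezo1 fl/fl library 4 of 9 genes with enough UMIs were higher (Lepr, Cd34 5.16-fold, Prrx1 3.27-fold and Ly6a 2.22-fold), with 16.4% of all genes past 2-fold. The folds of Lepr and Cd34 are taken against levels at background. Against tendon-like cells 2 genes were higher in the control, Gli1 (2.76-fold, from 82 and 8 UMIs) and Prrx1 (2.33-fold), with 13.3% of all genes past 2-fold. In the Piezo1 fl/fl library Gli1 (3.25-fold) and Cd200 (2.20-fold) were higher and Cd34, Ly6a and Eng lower, with 10.7% of all genes past 2-fold. The Eng difference rests on 26 and 24 UMIs. Both shares of cells with a UMI (1.02% and 2.59%) lay below that of macrophage-like cells, so the difference was one between levels read as background.

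The 20 further genes that mark or sort skeletal stem cells were counted in the same way. Of 16 with enough UMIs in the control, 4 were higher and 5 lower in SSPC-1-like than in fibroblast-like cells, where 17.8% of all genes were past 2-fold. The BMP antagonist Grem1 had 106 against 3.46 CPM, the Wnt target Axin2 37.5 against 10.7 CPM, and Nt5e, the surface enzyme CD73, 98.0 against 31.8 CPM. Pdgfra, the receptor of the sort that pairs it with SCA-1, was lower, with 390 against 1016 CPM, and so were Cd44 (107 against 394 CPM), the chemokine Cxcl12 (56.0 against 355 CPM) and Enpep (3.02 against 34.0 CPM). Of 15 with enough UMIs against SSPC-2-like cells, 6 were higher and 4 lower, again beside 17.8% of all genes. The parathyroid hormone-like ligand Pthlh stood at 103 against 3.21 CPM and Fgfr3 at 8.61 against 112 CPM. In the Piezo1 fl/fl library the counts were 3 higher and 4 lower of 14 against fibroblast-like cells (16.6% of all genes), and 5 higher and 3 lower of 13 against SSPC-2-like cells (16.4% of all genes).

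The surface genes were next read as a gate on transcripts. A cell passed when it had a Cd200 UMI and none of Thy1, Enpep, Eng, Ptprc (CD45) and Pecam1 (CD31) after thinning, so a missing transcript was taken for a negative cell, which is not the same as missing protein. Of all thinned cells 656 of 3936 (16.7%) passed in the control and 810 of 4504 (18.0%) in the Piezo1 fl/fl library. Among SSPC-1-like cells 35.3% (31.8 to 38.9) and 39.1% (35.9 to 42.5) passed, and these made up 38.7% and 42.7% of the cells in the gate. The gate therefore held more cells of other classes than SSPC-1-like cells. SSPC-2-like cells passed in 21.8% and 33.3%, mural-like cells in 27.8% and 36.2%, tendon-like cells in 20.9% and 16.4%, and fibroblast-like cells in 5.72% and 7.78%. The Gdf10 group of the fibroblast-like cells passed in 8.51% in the control but in 36.5% in the Piezo1 fl/fl library, where its interval reached up to 43.3% and overlapped that of the SSPC-1-like cells. In the same library 16 of the 26 thinned chondrocyte-like cells passed (61.5%). Mature osteoblast-like cells of the control passed in 80.4% (67.6 to 89.8), the highest share of any class, from 45 of 56 cells. Macrophage-like cells passed in 0.623% and 1.40%, and only 2.80% and 2.24% of them had a Cd200 UMI at all. A Cd200 UMI was found in 74.6% and 68.4% of endothelial-like cells. They passed in 0 of 118 (up to 3.08%) and 1 of 95, as the gate excludes their own marker Pecam1.

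The negative markers removed different amounts. In control SSPC-1-like cells 49.7% had a Cd200 UMI, 48.4% were left without Ptprc and Pecam1, 36.9% without Thy1 as well, 36.4% without Enpep and 35.3% without Eng. The Thy1 step thus took away most of what was removed, and in fibroblast-like cells of the control it brought the share from 11.8% to 6.39%. Cells in the gate that also held a Ctsk UMI were 25.7% of SSPC-1-like cells in the control against 29.0% in the Piezo1 fl/fl library, and those that also held an Itgav UMI were 10.99% and 13.35%. The other sort, on Pdgfra and Ly6a, read as transcripts, took 80.0% (77.8 to 82.0) and 74.9% (72.9 to 76.8) of fibroblast-like cells but 10.0% and 14.4% of SSPC-1-like cells. The cells that passed it were SSPC-1-like in 5.46% and 7.27%.

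**Figure D3:**
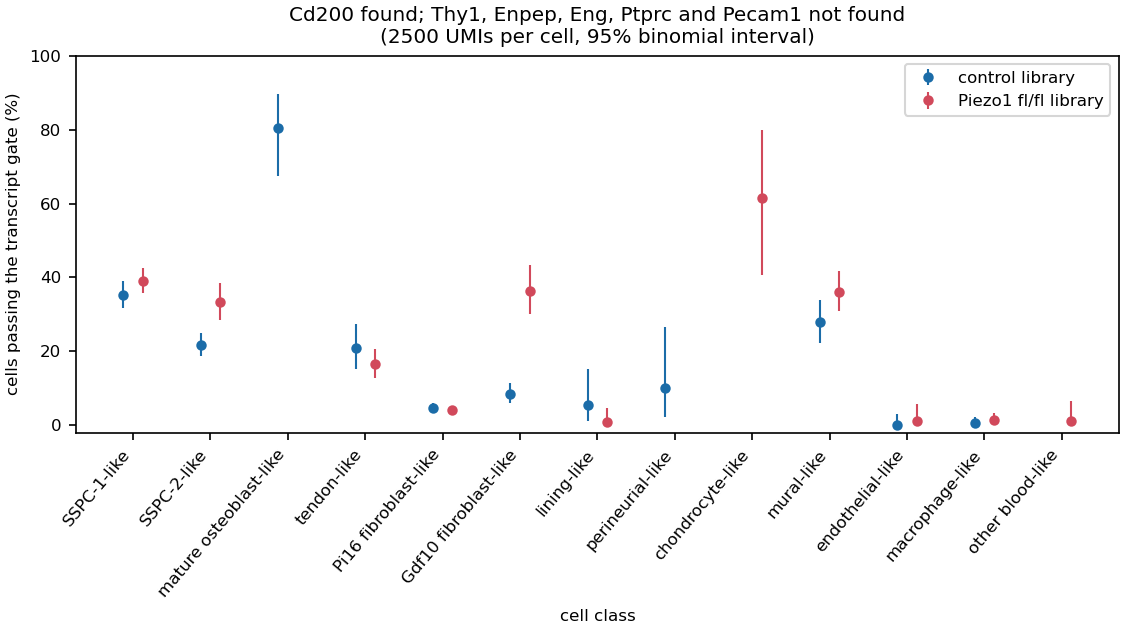
Share of the cells of each class (percent) with a Cd200 UMI and none of Thy1, Enpep, Eng, Ptprc and Pecam1 after thinning to 2500 UMIs, with exact 95% binomial intervals, in the control and the Piezo1 fl/fl library. SSPC-1-like cells passed in 35.3% and 39.1%, below the mature osteoblast-like cells of the control (80.4%), while the Gdf10 fibroblast-like cells passed in 8.51% and 36.5%.

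Co-detection within a class asked whether a pair of the genes was found in the same cells more often than their single shares give when multiplied. Of 45 pairs, those with at least 20 cells expected to hold both were given a ratio. Most pairs lay near 1. The median ratio in SSPC-1-like cells was 1.00 over 30 pairs in the control and 1.00 over 28 pairs in the Piezo1 fl/fl library. Ctsk and Cd200 were such a pair, with both found in 259 control SSPC-1-like cells where 259.7 were expected. Cd34 and Ly6a had the highest ratio, 1.39 in the control against 1.45 in the Piezo1 fl/fl library. Of SSPC-1-like cells with a Cd34 UMI, 25.7% (19.9 to 32.3) and 39.9% (32.9 to 47.2) held Ly6a, against 15.6% (12.6 to 19.0) and 24.2% (21.0 to 27.5) of those without. Lepr and Cd34 followed with 1.35 in both libraries, from 64 cells with both where 47.3 were expected and from 49 where 36.2 were expected.

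Some pairs were found together less often. In Piezo1 fl/fl SSPC-1-like cells, Thy1 and Cd34 had a ratio of 0.648, with 30 cells holding both where 46.3 were expected. The control value was 0.980, from 50 cells where 51.0 were expected, so the deficit was seen in 1 library. In fibroblast-like cells Lepr and Thy1 had 0.773 in the control and Cd200 and Thy1 0.772 in the Piezo1 fl/fl library. These ratios pool the Pi16 and Gdf10 groups, whose single shares differed. In the Piezo1 fl/fl library a Cd200 UMI was found in 54.2% of the Gdf10 group and 9.76% of the Pi16 group. A Thy1 UMI was found there in 23.8% and 55.97%. The part of this makeup in the ratios was not tested. Lepr and Cd200 had 1.82 in control fibroblast-like cells, from 49 cells where 27.0 were expected, in a class that pooled the Pi16 and Gdf10 groups, but 1.08 in the Piezo1 fl/fl library, from 27 cells where 25.03 were expected. With all stromal classes but the mural-like and chondrocyte-like cells taken as 1 set, Cd34 and Ly6a had 1.60 and 1.32, and Cd200 and Ly6a 0.569 and 0.701, values that the makeup of the set enters. The number of members per cell was also counted. A control SSPC-1-like cell had UMIs of 4 of the 10 genes at the median and a Piezo1 fl/fl one of 3, while the median fibroblast-like cell had 4 in both libraries and the median SSPC-2-like cell 2 and 3.

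**Figure D4:**
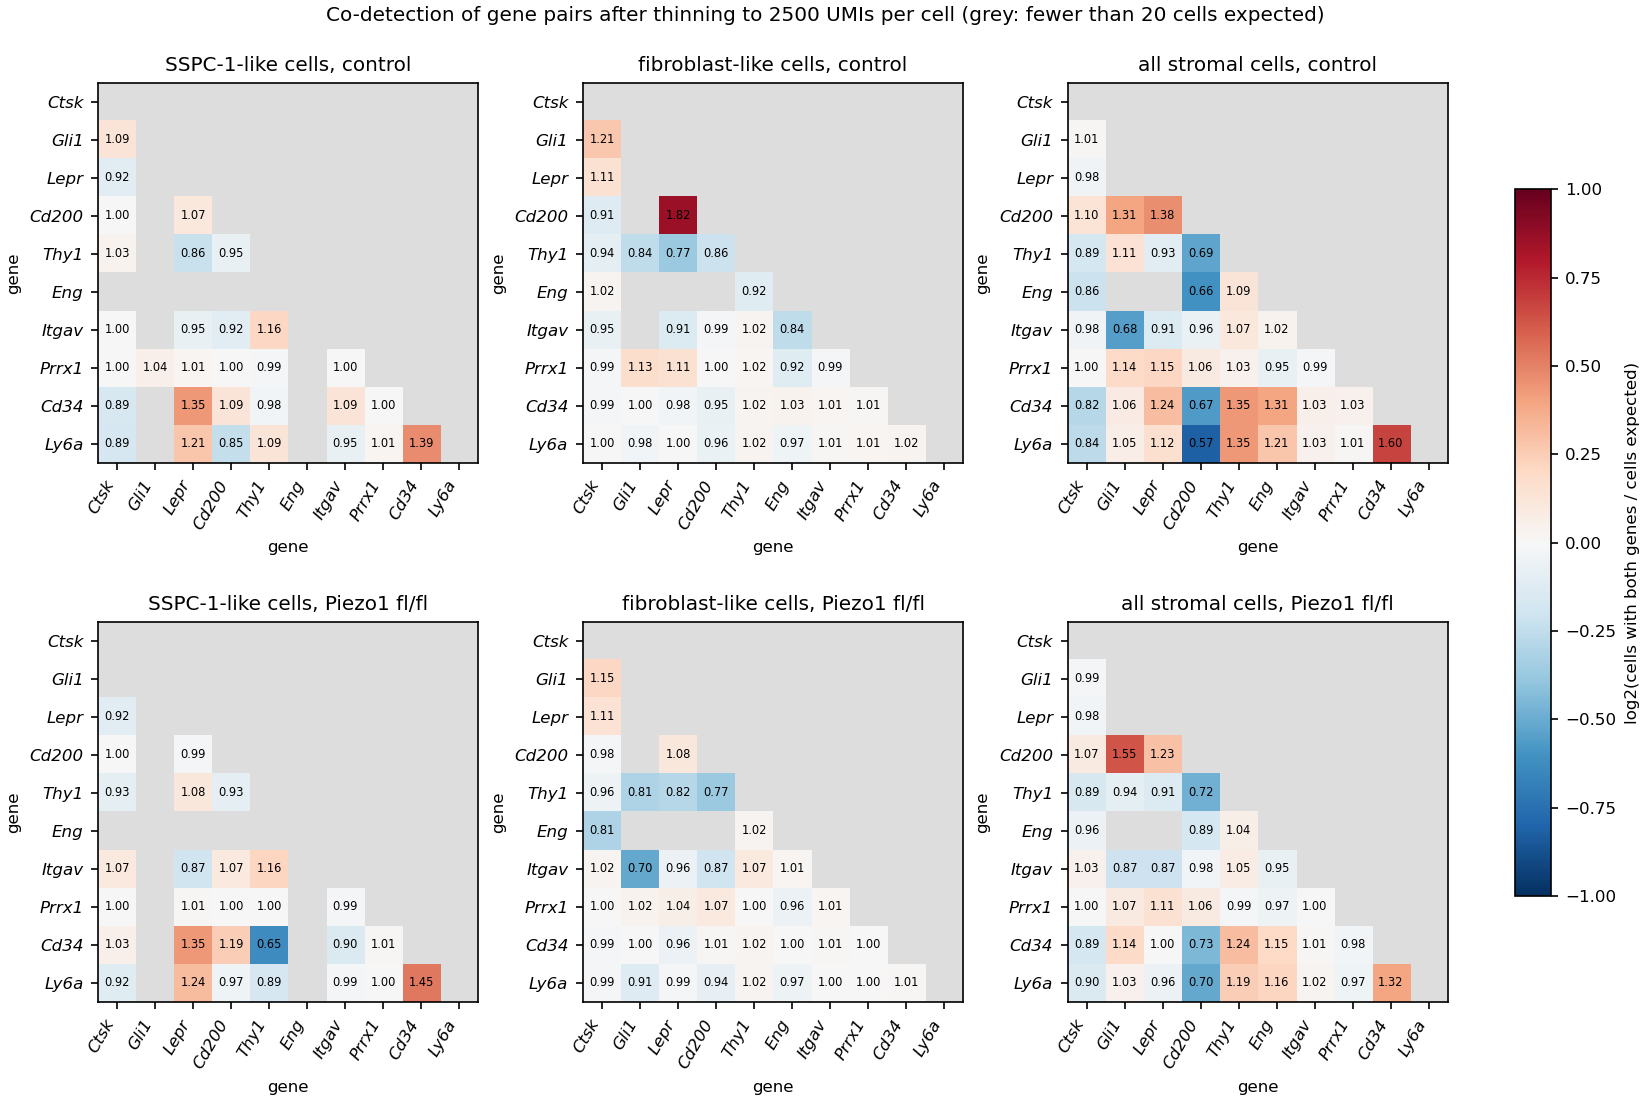
Ratio of the cells that held both genes of a pair to the number expected from their single shares, within SSPC-1-like, fibroblast-like and all stromal cells (without the mural-like and chondrocyte-like cells) of each library after thinning, with the ratio printed and its log2 as the colour; pairs with under 20 cells expected are grey. Cd34 with Ly6a (1.39 and 1.45) and Lepr with Cd34 (1.35 in both libraries) stand above 1 in SSPC-1-like cells.

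The Piezo1 fl/fl library was set against the control class by class, counting a gene when its CPM differed at least 1.5-fold with at least 50 UMIs over both. In SSPC-1-like cells Ly6a was 2.01-fold higher (log2 difference 1.01, 0.88 to 1.13) in the Piezo1 fl/fl library, and Gli1 (log2 difference -0.70) and Eng (-0.76, -1.53 to -0.02) were lower, which made 3 of 10 genes where 13.5% of all genes were past 1.5-fold. The higher Ly6a level was not particular to these cells. It was 1367 and 2089 CPM over all retained cells, a value that class makeup enters, as Pi16 fibroblast-like cells were 25.8% and 36.5% of them. Within classes it was 3302 and 3975 CPM in fibroblast-like, 3367 and 3782 CPM in endothelial-like, and 80.5 and 146.5 CPM in macrophage-like cells. The Gdf10 fibroblast-like group went the other way (2635 and 2472 CPM). Eng was at a level read as background in both libraries (42 and 26 UMIs). Its log2 difference was -0.15, no longer past 1.5-fold, with the class of each cell set by its own marker UMIs. Prrx1 was lower by less than that, with a log2 difference of -0.52 (-0.57 to -0.47), and so was Lepr with -0.36. Cd34 had a log2 difference of -0.27 here, which turned to 0.53 when each cell was given a class by its own marker UMIs. In fibroblast-like cells 1 of 10 genes was past 1.5-fold, Lepr, with 56.6 CPM against 126 CPM in the control (log2 difference -1.15, -1.29 to -1.02), where 10.2% of all genes were. Within that class Lepr stood at 71.5 CPM in the control and 60.8 CPM in the Piezo1 fl/fl library in the Pi16 group, and at 286 and 25.1 CPM in the Gdf10 group, which held 492 and 230 cells. The part of this makeup in the difference was not tested.

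Of the 20 further genes, 14 had enough UMIs in SSPC-1-like cells, with 1 higher and 3 lower in the Piezo1 fl/fl library, beside 13.5% of all genes past 1.5-fold. Pdpn, which encodes the membrane mucin podoplanin, had 203 CPM in the control and 335 CPM in the Piezo1 fl/fl library, Grem1 106 and 41.7 CPM, the homeobox gene Hoxa11 11.2 and 2.67 CPM, and Fgfr3 8.61 and 4.93 CPM. In fibroblast-like cells 3 of 16 were higher (Pdpn, Cd44 and Cxcl12) and 5 lower, among them Nt5e (31.8 and 14.6 CPM) and Sox9 (125 and 62.0 CPM), beside 10.2% of all genes.

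In tendon-like cells Ly6a had 148 UMIs in the control against 2590 in the Piezo1 fl/fl library, a log2 difference of 3.39 (3.15 to 3.63), and Cd34 had 217 and 1264 UMIs, a log2 difference of 1.80 (1.59 to 2.01). They were 2 of 8 genes with enough UMIs, and 19.8% of all genes were past 1.5-fold in this class. Some fibroblast genes were higher there as well. The 8 markers of Pi16 fibroblasts, all detected in both, summed to 1237 CPM in the control and 1818 CPM in the Piezo1 fl/fl tendon-like cells, with Dpt at 44.0 and 438 CPM and Clec3b at 231 and 566 CPM. In the same list Sema3c stood at 589 and 599 CPM, and Pcolce2 (221 and 70.3 CPM) and Dpp4 (129 and 33.0 CPM) were lower in the Piezo1 fl/fl library. The 6 markers of Gdf10 fibroblasts summed to 1538 and 1641 CPM. The 8 tendon markers summed to 49630 and 35650 CPM. Among tendon-like cells with no UMI of Pi16, Dpt and Clec3b after thinning, Ly6a still had 128 CPM (104 to 155) in 127 control cells and 485 CPM (436 to 538) in 145 Piezo1 fl/fl cells, and Cd34 108 and 232 CPM. With such a UMI, Ly6a had 117 CPM in 60 control cells and 1674 CPM in 202 Piezo1 fl/fl cells. The part of these fibroblast genes in the difference was not tested further.

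The line between SSPC-1-like and tendon-like cells bears on all values of these classes. Under 6 other settings the SSPC-1-like cluster of the Piezo1 fl/fl library took the tendon-like name, and the log2 difference in tendon-like cells then ran from 0.35 to 3.40 for Ly6a and from 0.17 to 1.83 for Cd34 over all settings, both low values being those with doublets kept. With both classes pooled, which does not need that line, Ly6a had 156 CPM in the control and 605 CPM in the Piezo1 fl/fl library (log2 difference 1.96, 1.85 to 2.06, from 1.34 to 2.86 over the settings). Cd34 had a log2 difference of 0.63 (0.55 to 1.60 over the settings), Gli1 of -0.83 (-0.84 to -0.69) and Prrx1 of -0.53 (-0.60 to -0.47). Ly6a, Cd34 and Gli1 made 3 of 10 genes past 1.5-fold, where 14.1% of all genes were.

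In SSPC-2-like cells 3 of 9 genes with enough UMIs were higher in the Piezo1 fl/fl library and 12.7% of all genes were past 1.5-fold. Cd200 had a log2 difference of 1.06 (0.91 to 1.21), Ly6a of 0.95 (0.75 to 1.16) and Cd34 of 0.70 (0.26 to 1.14), the last between levels at background. The 9 mature osteoblast markers in the same cells summed to 5112 CPM in the control and 17200 CPM in the Piezo1 fl/fl library, with Ibsp at 2756 and 8416 CPM. The control library, unlike the other, had a mature osteoblast-like class of its own, in which they summed to 51370 CPM. Cd200 stood at 668 CPM in that class, and the part of such cells in the difference was not tested. Prrx1 had a log2 difference of -0.30 that turned to between 0.28 and 0.43 under 4 other settings.

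Outside these classes, 0 of 7 genes were past 1.5-fold in mural-like cells, where 8.63% of all genes were. In endothelial-like cells Lepr (99 and 47 UMIs, log2 difference -0.93) and Itgav (39 and 23 UMIs, -0.62, -1.43 to 0.16) made 2 of 8, where 16.0% of all genes were. In macrophage-like cells 5 of 8 were, with 14.9% of all genes past 1.5-fold. Ctsk (log2 difference 0.69) and Ly6a (0.86) were higher, and Thy1 (-1.37), Prrx1 (-1.02) and Cd34 (-1.06) were lower in the Piezo1 fl/fl library. The Ctsk difference lay in the few cells with osteoclast genes, as the rest of the class had 66.3 and 45.0 CPM. Thy1, Prrx1 and Cd34 are not genes of macrophages, and their levels in this class were at most 114 CPM. Their UMIs lay in few cells. In the control the top 5% of cells held 91.8% of the Thy1, 73.0% of the Prrx1 and 77.8% of the Cd34 UMIs. A single cell held up to 26, 32 and 53 of them. In the Piezo1 fl/fl library the top 5% held 70.5% of the Prrx1 and 73.6% of the Cd34 UMIs. The 8 tendon markers in the same cells summed to 634 CPM in the control and 340 CPM in the Piezo1 fl/fl library. The Pi16 fibroblast markers summed to 188 and 194.5 CPM, and the Gdf10 fibroblast markers, from 194 and 239 UMIs, to at most 107 CPM in either library. The mature osteoblast markers summed to 194 and 343 CPM, so that the stromal lists did not move together. The part of stray stromal RNA, or of cells mixed with stromal cells, in these differences was not tested.

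**Figure D5:**
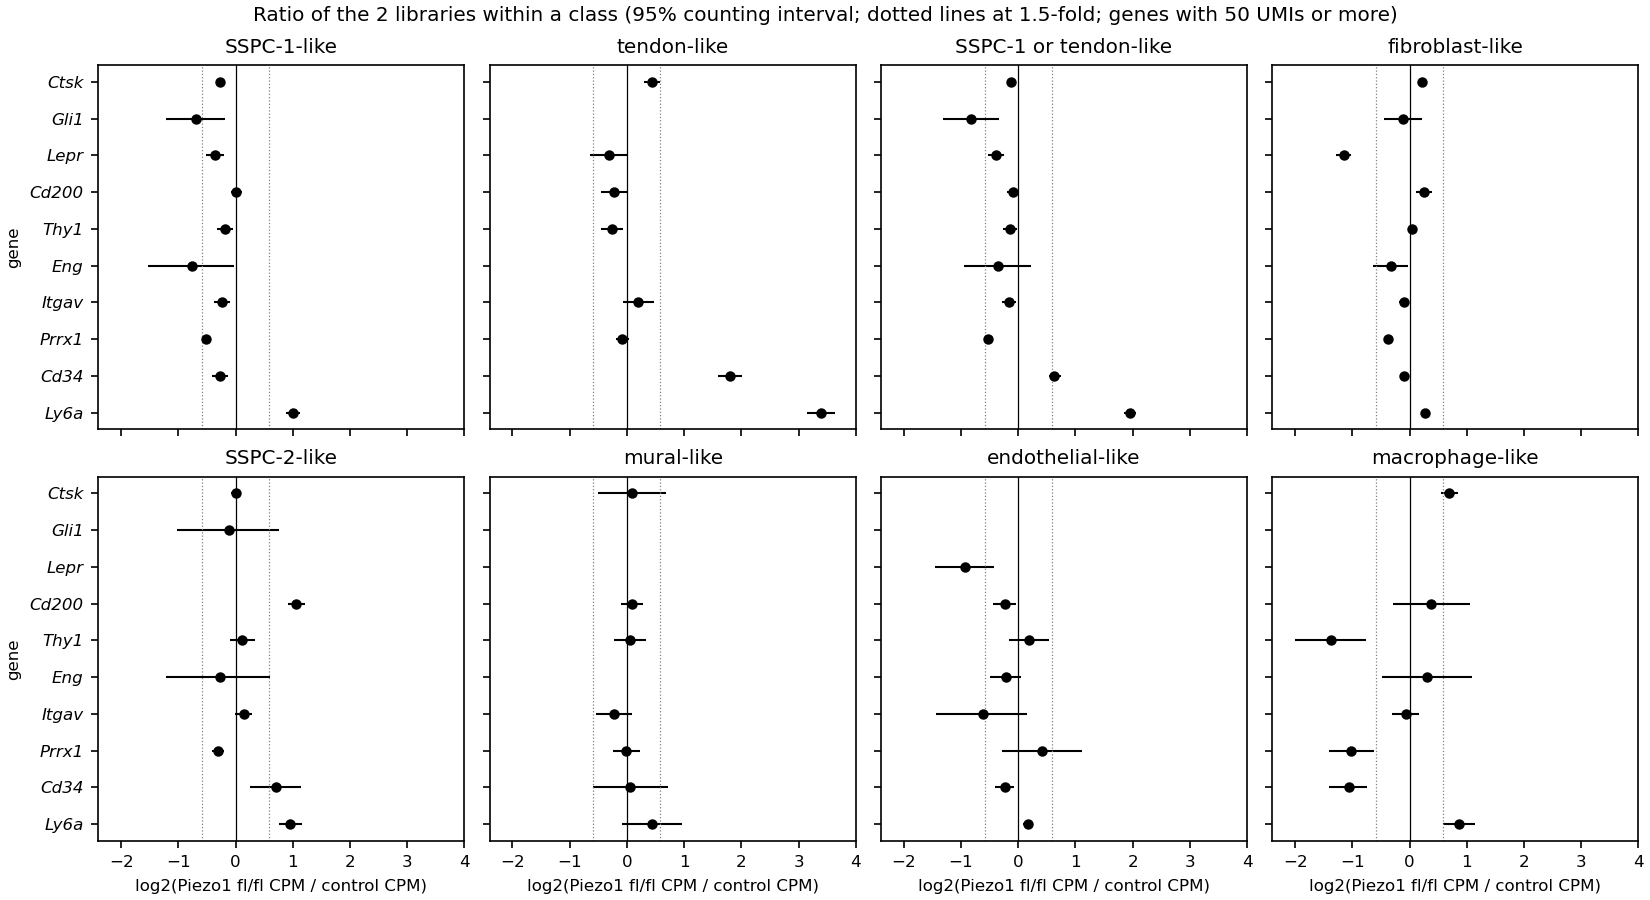
Log2 ratio of the Piezo1 fl/fl over the control library for each gene with at least 50 UMIs, by class, with exact 95% intervals for counting error, and the pooled SSPC-1-like and tendon-like cells as a class of their own; the dotted lines mark 1.5-fold. Ly6a lies to the right of 0 in SSPC-1-like (1.01), tendon-like (3.39), SSPC-2-like (0.95) and pooled cells (1.96), and Lepr to the left in fibroblast-like cells (-1.15). The Ly6a points of the fibroblast-like, mural-like, endothelial-like and macrophage-like cells also lie to the right of 0.

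Finally, for each member the genes with the most similar levels over 21 classes of at least 30 cells, both libraries together, were taken from 6586 genes. The points share their libraries and some are neighbouring classes, so the correlations of log2(CPM + 10) describe likeness only. Prrx1 was most like Hoxc9 (Pearson r = 0.967) and Nfix (0.949), Eng like the endothelial genes Plvap (0.943) and Ptprb (0.936), and Ly6a like Ly6c1 (0.949), with which it shares sequence, and Ramp2 (0.918). Cd34 was most like Fbln2 (0.930), Gli1 like Tspan11 (0.900), Lepr like Spred2 (0.884) and Bmp4 (0.880), and Itgav like Itgb5 (0.883), a partner subunit of integrin alpha V. Cd200 was most like Timp3 (0.871), Ctsk like Tent5a (0.863), and Thy1 like Atp8b1 (0.788), the lowest of the 10. Among the members themselves Cd34 and Ly6a were most alike (0.827) and Eng and Itgav least (-0.616).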

How the data were processed

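Single-cell libraries of sorted Prx1-lineage periosteal cells were analysed, 1 per genotype. The authors deposited a gene-by-cell table of raw UMI counts for each. Their processing notes name fastp, UMI-tools, STAR and Seurat 4.0.3, while the genome build, annotation and strand setting are not given in the sources used here. All 10 member IDs were matched to GENCODE vM21. A cell was kept if it had between 1000 and 5000 genes, with mitochondrial UMIs below 25%, after doublets had been called by Scrublet in scanpy 1.11.5 (46 of 5551 control cells and 67 of 6784 Piezo1 fl/fl cells with at least 500 genes). The study states these gene and mitochondrial limits for its single-cell data of fracture repair. Blood-like cells were kept here, whereas the study reports leaving blood cells out of its periosteal data. Each library was clustered in Seurat 5.3.0 from 2000 variable genes, of which 18 and 17 listed stem cell genes were left out, with 20 dimensions and resolution 0.4. A cluster took the name whose markers had the highest mean log2 ratio, with at least 3 markers raised 2-fold. CPM intervals were exact Poisson, ratio intervals exact conditional and share intervals Clopper-Pearson (scipy 1.17.1). They cover counting error only, and no test between groups was possible. The members and all lists were chosen with earlier results of these data known, and named genes were the members, the further list, the targeted gene and the 3 genes most like each member. The calculations were tested on simulated counts. Alternatives numbered 10, besides 3 added after seeing the data (the pooled SSPC-1-like and tendon-like class, tendon-like cells without Pi16, Dpt and Clec3b, and shared barcodes left out).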

Additional observations from a re-analysis of the deposited data

Results flagged for a closer look

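The ratio of the Piezo1 fl/fl over the control library went opposite ways in a pair of classes for Cd34 and for Cd200. For Cd34 the log2 difference was 1.80 in tendon-like and -0.27 in SSPC-1-like cells, 2.07 apart. For Cd200 it was 1.06 in SSPC-2-like and -0.24 in endothelial-like cells, 1.30 apart. With 1 library per genotype neither difference between classes was tested.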

How the results depend on the processing

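No paired analysis was possible because each genotype had 1 library. Under other settings, 89 counts, gate shares and co-detection ratios stayed near their main value and 15 moved, while of the other values 309 stayed, 89 moved and 6 changed sign. The cause was not tested. Giving each cell a class by its own marker UMIs left 5 of 10 members with the same highest class in the control, with SSPC-1-like and tendon-like cells apart or pooled. With 500 to 6000 genes per cell 6 members kept it in the Piezo1 fl/fl library. The share of SSPC-1-like cells in the Cd200 gate was 30.6% (control) and 32.4% (Piezo1 fl/fl) after thinning to 1500 UMIs, and 35.5% (Piezo1 fl/fl) with classes from marker UMIs. Members past 1.5-fold between the libraries numbered 4 in tendon-like cells with 500 to 6000 genes, under 10% mitochondrial UMIs, resolution 0.2 or the members kept in the clustering. In SSPC-2-like cells they numbered 5 with those gene limits, under 10% mitochondrial UMIs, resolution 0.8, the members kept, or classes from marker UMIs. Signs turned for Cd34 in SSPC-1-like cells (log2 difference 0.53) and Ctsk in tendon-like cells (-0.02) with classes from marker UMIs, and for Prrx1 in SSPC-2-like cells with the wider gene limits (0.35), under 10% mitochondrial UMIs (0.33), resolution 0.8 (0.43) and the members kept (0.28). In the pooled SSPC-1-like and tendon-like cells Cd34 had its highest log2 difference, 1.60, at resolution 0.8. In the Piezo1 fl/fl library no SSPC-1-like class was named under 6 settings (500 to 6000 genes, under 10% mitochondrial UMIs, doublets kept, resolution 0.2 or 0.8, the members kept), so its values there could not be given. Depth limited Gli1 and Eng most, with at most 82 and 42 UMIs in SSPC-1-like cells.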
